A study of Mus musculus with 2 samples.

Results

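Dividing cells were picked out of a single-cell RNA-sequencing study of the mouse uterus as the barcodes that held RNA of at least 3 of 12 division genes (Mki67, Top2a, Cdk1, Cenpf, Cenpe, Prc1, Nusap1, Tpx2, Birc5, Ube2c, Hmmr and Kif11). A barcode stands for 1 droplet, in most cases 1 cell, and RNA molecules are counted by unique molecular identifiers (UMIs). The rule was applied to barcodes with at least 500 detected genes and at most 15% of UMIs from mitochondrial genes, and it found 251 dividing barcodes among 7413. The study has 2 libraries of whole uterus, both taken at gestational day 3.5 from female mice and read with 10x chemistry after trypsin digestion. The library labelled KO, called KO here, came from Pgrcre/+Mig-6f/f mice, which carry floxed Mig-6 alleles and a Cre recombinase at the progesterone receptor gene, so that deletion is directed to cells that express Pgr. The library labelled Cont came from Mig-6f/f mice, which carry the floxed alleles without Cre. An effect of Cre, or of the changed Pgr allele, cannot be told apart from that of Mig-6. The labels do not say how many animals went into a library. KO held 59 dividing barcodes among 2951 and Cont held 192 among 4462. Each group is 1 library, so no test between them was possible, cells are not replicates, and every interval below is a 95% interval for counting error only.

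Before implantation, estrogen drives the luminal epithelium of the mouse uterus to divide, and progesterone then stops that division and moves division to the stroma, which later forms the decidua. Mig-6, encoded by Errfi1, binds and restrains the epidermal growth factor receptor and is induced by progesterone in the uterus. A dividing cell first copies its DNA in S phase, which needs the MCM helicase, DNA polymerases, DNA ligase and enzymes that make nucleotides, and it then condenses and separates its chromosomes in mitosis, which needs cyclin B, Cdk1, kinesins and the spindle checkpoint. The 12 division genes belong mainly to the G2 and mitotic programme, so barcodes early in S phase need not hold them.

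Errfi1 itself was measured first. Among stromal barcodes outside the dividing set it averaged 745 CPM (the gene's UMIs per 10,000 UMIs summed over the barcodes of a class, multiplied by 100) in KO and 197 CPM in Cont, which is 3.78-fold higher in KO (interval 3.61 to 3.94). Among the other epithelial barcodes it was 510.4 CPM in KO and 599.6 CPM in Cont. The transcript level therefore went against the KO label in stroma. Counts near the 3' end of the transcript do not report a deletion elsewhere in the gene, and the labels do not say where the deleted part lies, so this gene does not check the genotype, and every direction below is between the libraries as labelled. Depth differed too, with a median of 4968 UMIs per kept barcode in KO and 9252 in Cont. The libraries shared 3 barcode names, of which 0 belonged to dividing barcodes.

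The dividing barcodes were not all epithelial or stromal. Epithelial barcodes were those with Epcam, Krt8, Krt18 and Cldn7, a surface adhesion molecule, 2 keratins and a claudin of simple epithelia, at 10 or more per 10,000 UMIs together. Stromal barcodes were those with the matrix genes Dcn, Col1a2, Col3a1 and Col6a2 at that level. In KO, 12 of the 59 dividing barcodes were epithelial (20.3%, interval 11.0 to 32.8), 11 were stromal (18.6%, 9.69 to 30.9), 1 passed both limits and 35 passed neither (59.3%, 45.7 to 71.9). In Cont, 35 of 192 were epithelial (18.2%, 13.04 to 24.4), 94 were stromal (49.0%, 41.7 to 56.3), 3 passed both and 60 passed neither. Of the barcodes that passed neither, 30 of 35 in KO and 50 of 60 in Cont held at least 3 of 10 NK or T cell markers, such as the cytotoxic granule genes Nkg7 and Gzma and the interleukin receptor chain Il2rb. Of these barcodes 0 of 35 in KO and 6 of 60 in Cont held at least 3 of 7 endothelial markers, and 2 of 35 in KO and 1 of 60 in Cont held at least 3 of 10 macrophage or myeloid markers. The largest group of dividing barcodes in KO was thus NK or T marked, and the members as a whole were not only cells of epithelium and stroma. The labels state that blood cells were taken out with a dead cell removal kit before the libraries were made. Stromal markers were at 0 UMIs, all 4 of them, in the 35 KO barcodes that passed neither limit. Of the epithelial members 9 of 12 in KO and 27 of 35 in Cont held at least 3 of 7 luminal genes. So did 660 of 1436 other epithelial barcodes in KO (46.0%) and 495 of 695 in Cont (71.2%). At least 3 of 8 glandular genes were held by 0 of 12 and 2 of 35 members, and by 103 of 1436 and 106 of 695 others. The members were deeper than the others, and finding markers grows with depth, so the luminal share is not read as particular to the members.

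Dividing barcodes were scarcer in KO than in Cont in both tissue layers when all UMIs were used. In epithelium 12 of 1448 KO barcodes were dividing (0.829%, interval 0.429 to 1.44) and 35 of 730 Cont barcodes were (4.79%, 3.36 to 6.61), a difference of -3.97 percentage points (interval -5.80 to -2.50). In stroma the shares were 11 of 1129 in KO (0.974%, 0.487 to 1.74) and 94 of 3396 in Cont (2.77%, 2.24 to 3.38), a difference of -1.79 points (-2.54 to -0.882). Among NK or T marked barcodes they were 30 of 107 in KO (28.0%) and 50 of 97 in Cont (51.5%).

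The chance of finding 3 division genes grows with depth, so each barcode was also thinned to 2000 randomly drawn UMIs, with shallower barcodes left out. Over 20 draws, the epithelial share was then 0.0501% in KO, a mean of 0.7 of 1396 barcodes, and 1.32% in Cont, a mean of 9.45 of 714. The stromal shares came close together, at 0.635% in KO, a mean of 6.35 of 1000 barcodes, and 0.816% in Cont, a mean of 27.5 of 3362. So did those of the NK or T marked barcodes, at 35.6% in KO and 35.8% in Cont. Thinning left out 52 epithelial, 129 stromal and 53 NK or T marked KO barcodes, against 16, 34 and 4 Cont barcodes. Thinned to 2000 UMIs, the gap thus remained wide in epithelium and was small in stroma. Bins of depth were compared for each class. Epithelial barcodes with at least 16000 UMIs were dividing in 8 of 406 cases in KO (1.97%, 0.854 to 3.85) and 25 of 215 in Cont (11.6%, 7.67 to 16.7). At 8000 to 16000 UMIs 3 of 413 KO (0.726%, 0.150 to 2.11) and 9 of 431 Cont epithelial barcodes (2.09%, 0.959 to 3.93) were dividing. At 4000 to 8000 UMIs 1 of 501 KO and 1 of 62 Cont epithelial barcodes were. Below 16000 UMIs the epithelial intervals thus overlapped. Stromal barcodes with 4000 to 8000 UMIs were dividing in 6 of 405 cases in KO (1.48%, 0.546 to 3.20) and 8 of 1026 in Cont (0.780%, 0.337 to 1.53). At 2000 to 4000 UMIs 4 of 580 KO and 0 of 164 Cont stromal barcodes were dividing. At 8000 to 16000 UMIs 1 of 15 (6.67%) and 70 of 2040 (3.43%) were. In these stromal bins the KO share was the higher, with overlapping intervals. From 16000 UMIs KO had 0 stromal barcodes, and 16 of 132 Cont barcodes were dividing. NK or T marked barcodes were dividing more often in KO within bins, in 20 of 48 cases in KO (41.7%, 27.6 to 56.8) and 2 of 18 in Cont (11.1%, 1.38 to 34.7) at 2000 to 4000 UMIs, and in 6 of 6 and 22 of 46 (47.8%) at 4000 to 8000 UMIs. Thinned to 4000 UMIs they stood at 96.7% of only 6 KO barcodes and 57.1% of 75 Cont barcodes, so the order of the libraries in this class turned with the depth used.

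**Figure D1:**
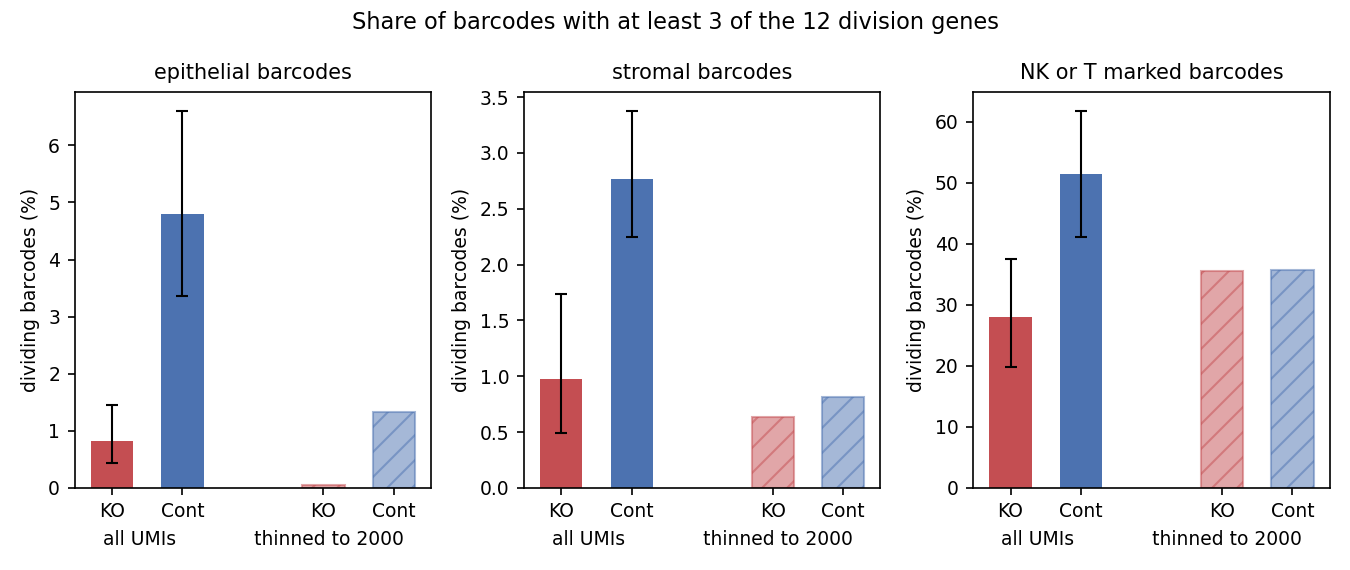
Percent of barcodes that were dividing (y axis) among epithelial, stromal and NK or T marked barcodes, KO left of Cont, with all UMIs (solid bars, exact 95% binomial intervals) and thinned to 2000 UMIs (hatched bars, mean of 20 draws). The epithelial bars stay far apart after thinning (0.0501% in KO and 1.32% in Cont), whereas the stromal bars (0.635% and 0.816%) and the NK or T marked bars (35.6% and 35.8%) come close.

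Where dividing epithelial barcodes could be assigned to luminal epithelium, 9 of 669 in KO (1.35%, 0.617 to 2.54) and 27 of 522 in Cont (5.17%, 3.44 to 7.44) were dividing. Gland-marked barcodes held 0 dividing of 103 in KO, which allows a share of up to 2.91% counting 3 barcodes for the zero and 3.52% by the exact interval, and 2 of 108 in Cont (1.85%, 0.225 to 6.53).

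The members differed in how firmly they met the rule. Of the 12 epithelial members in KO, 7 held exactly 3 division genes and 3 held at least 5, and in 5 of the 12 every detected division gene was seen by 1 UMI. They were also deep barcodes, with a median of 23557.5 UMIs against 9545.5 in the other KO epithelial barcodes. Of the 35 epithelial members in Cont, 9 held exactly 3 and 20 held at least 5. In stroma 4 of 11 KO members and 31 of 94 Cont members held exactly 3, and 5 of 11 and 53 of 94 held at least 5. Each library also held barcodes near the limit. Just outside the rule, with exactly 2 division genes, lay 20 epithelial and 7 stromal KO barcodes, against 35 and 81 Cont barcodes. The replication list described below summed to 5.30 UMIs per 10,000 in KO epithelial members with exactly 3 genes and 5.75 in those barcodes with exactly 2, and to 19.3 and 18.9 in Cont. In stroma it was 7.79 and 7.97 in KO and 56.8 and 30.6 in Cont. Dividing barcodes held 29.1% of all division-gene UMIs of the epithelium in KO and 76.1% in Cont, and 56.5% of those of the stroma in KO and 68.6% in Cont. In KO epithelium most division-gene UMIs therefore lay scattered over barcodes that did not meet the rule.

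**Figure D2:**
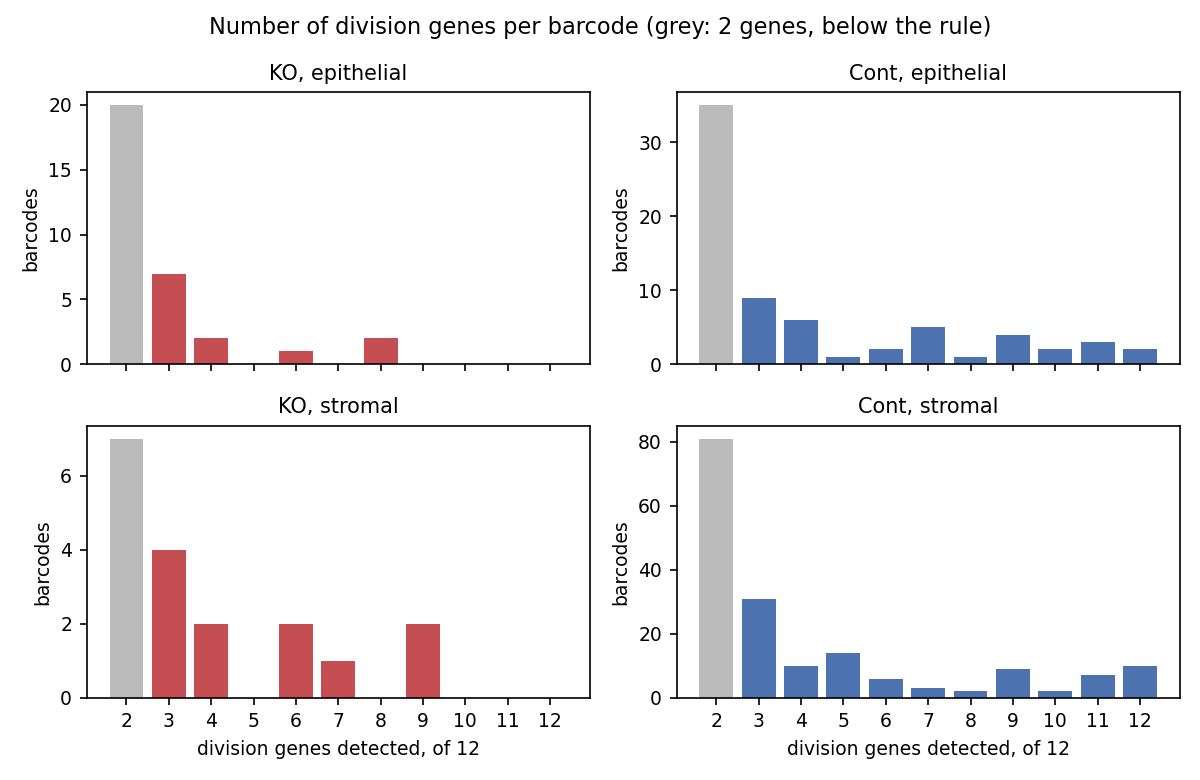
Number of barcodes (y axis) that held a given number of the 12 division genes (x axis), for epithelium (top) and stroma (bottom), KO left and Cont right, with the 2-gene barcodes just outside the rule in grey. Of the KO epithelial members 7 of 12 sit at exactly 3 genes and the highest holds 8, whereas Cont members reach 12.

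Single division genes chose the members, so their levels are a description. Top2a, a topoisomerase that untangles chromosomes, was found in 7 of 12 KO and 31 of 35 Cont epithelial members, at 59.7 and 205 CPM, and in 2.99% and 9.93% of the other epithelial barcodes. Mki67, a coat protein of mitotic chromosomes, was found in 1 of 12 KO and 16 of 35 Cont epithelial members, and in 7 of 11 KO and 56 of 94 Cont stromal members. Cdk1, the kinase that starts mitosis, was found in 2 of 11 KO and 74 of 94 Cont stromal members. Ube2c, an enzyme that tags mitotic proteins for destruction, was found in a larger share of KO than of Cont epithelial members. It was in 7 of 12 in KO (58.3%, 27.7 to 84.8) and 9 of 35 in Cont (25.7%, 12.5 to 43.3), at 95.5 and 118 CPM. In stroma it was in 6 of 11 KO and 49 of 94 Cont members.

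Genes outside the rule were grouped by role, with a list of 63 replication and S-phase genes and a list of 87 measured mitotic genes. Promoters of both programmes are shown because the replication and mitotic lists are read apart throughout. The letters TTTGAA on either strand form the core of the cell cycle gene homology region of late-cycle genes, and they stood in 8 of 11 matched promoters of division genes (72.7%), 45 of 71 of the mitotic list (63.4%), 8 of 48 of the replication list (16.7%) and 20.2% of 27025 gene promoters. The letters GCGGGAA on either strand, a form of the E2F site of replication genes, stood in 0 of 11, 7 of 71 (9.86%), 20 of 48 (41.7%) and 5.29% of them. Windows ran from 250 bases before to 50 after the annotated start in RefSeq's GRCm38.p6 tables, an older build than the mm39 of the deposited data, and a match is not proof of a binding site. The motifs overlap in the letters GAA. Printed 5' to 3' in the direction of the gene, with matches in capitals, are 3 division genes with TTTGAA, namely Top2a, Ube2c and Prc1, which encodes a cross-linker of spindle microtubules.
Top2a, chr11:99024140-99024439, minus strand: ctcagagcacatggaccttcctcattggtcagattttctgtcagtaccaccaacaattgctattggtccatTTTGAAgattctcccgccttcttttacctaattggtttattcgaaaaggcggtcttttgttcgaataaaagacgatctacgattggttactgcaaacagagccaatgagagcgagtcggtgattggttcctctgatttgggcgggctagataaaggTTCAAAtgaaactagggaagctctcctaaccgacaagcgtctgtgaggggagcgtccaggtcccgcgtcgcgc
Ube2c, chr2:164769679-164769978, plus strand: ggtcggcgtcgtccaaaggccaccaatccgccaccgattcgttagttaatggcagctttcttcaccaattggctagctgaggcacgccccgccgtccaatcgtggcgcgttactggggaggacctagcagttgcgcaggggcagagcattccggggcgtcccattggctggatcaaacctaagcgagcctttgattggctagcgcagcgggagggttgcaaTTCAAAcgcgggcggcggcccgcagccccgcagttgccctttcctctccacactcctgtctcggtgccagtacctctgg
Prc1, chr7:80294201-80294500, plus strand: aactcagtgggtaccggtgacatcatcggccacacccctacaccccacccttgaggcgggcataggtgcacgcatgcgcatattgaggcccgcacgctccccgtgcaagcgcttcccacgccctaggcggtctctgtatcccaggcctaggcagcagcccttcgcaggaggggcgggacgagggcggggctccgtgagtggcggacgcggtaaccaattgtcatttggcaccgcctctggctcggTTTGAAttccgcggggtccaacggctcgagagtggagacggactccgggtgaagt
They are followed by 3 replication genes with GCGGGAA, namely Pola1, the catalytic subunit of the polymerase that starts DNA strands, Hells, a chromatin remodeller, and Mcm3, a helicase subunit.
Pola1, chrX:93632106-93632405, minus strand: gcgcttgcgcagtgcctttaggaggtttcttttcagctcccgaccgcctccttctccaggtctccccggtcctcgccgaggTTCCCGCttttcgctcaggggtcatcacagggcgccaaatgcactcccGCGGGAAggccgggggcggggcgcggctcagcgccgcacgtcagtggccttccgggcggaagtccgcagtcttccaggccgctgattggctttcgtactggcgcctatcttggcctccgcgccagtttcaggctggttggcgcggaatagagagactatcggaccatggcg
Hells, chr19:38930740-38931039, plus strand: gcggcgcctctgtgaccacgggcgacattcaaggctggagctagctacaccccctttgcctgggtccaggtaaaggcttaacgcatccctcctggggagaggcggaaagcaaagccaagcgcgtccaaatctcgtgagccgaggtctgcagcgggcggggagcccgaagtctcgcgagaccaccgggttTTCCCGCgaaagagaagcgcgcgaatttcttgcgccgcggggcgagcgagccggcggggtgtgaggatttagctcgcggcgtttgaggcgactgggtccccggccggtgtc
Mcm3, chr1:20820263-20820562, minus strand: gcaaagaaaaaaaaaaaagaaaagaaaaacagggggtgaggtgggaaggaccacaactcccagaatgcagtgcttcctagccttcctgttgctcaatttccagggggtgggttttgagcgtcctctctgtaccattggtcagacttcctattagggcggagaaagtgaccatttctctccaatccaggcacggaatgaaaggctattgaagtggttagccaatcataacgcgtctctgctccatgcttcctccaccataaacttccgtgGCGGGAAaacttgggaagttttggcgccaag

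In Cont, epithelial members carried much more S-phase RNA than other epithelial barcodes. The replication list summed to 36.6 UMIs per 10,000 in dividing and 9.91 in other Cont barcodes, a ratio of 3.69 (interval 3.54 to 3.85), and 56 of 61 tested genes were at least 2-fold higher, with 0 at least 2-fold lower. Tested means at least 20 UMIs in both sets together, and over all genes 6.7% were at least 2-fold higher and 7.84% at least 2-fold lower. Mcm3 had 123 CPM in dividing and 38.7 CPM in other Cont epithelial barcodes, Mcm5, another helicase subunit, 99.6 and 18.6 CPM, and Rrm2, a subunit of the enzyme that makes deoxyribonucleotides, 182 and 15 CPM. The mitotic list summed to 50.01 and 13.3 per 10,000, a ratio of 3.75. That ratio ran from 2.60 to 5.76 over the alternative settings, the highest where members needed 5 division genes. Of 65 tested genes of the list 59 were at least 2-fold higher, among them Ccnb1, the cyclin partner of Cdk1, at 45.5 and 0.201 CPM. The mitotic values are a description and not support, since the rule chose members by genes of the same programme.

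KO epithelial members were low in S-phase RNA, and mitotic RNA was above the other barcodes in only some of them. The replication list summed to 6.17 per 10,000 in dividing and 5.005 in other KO epithelial barcodes, a ratio of 1.23 (1.04 to 1.44). Of 46 tested genes 8 were at least 2-fold higher and 1 was at least 2-fold lower, and 11 more had no UMI in the 12 members and could not be called, against 8.86% higher and 6.02% lower over all genes. The mitotic list summed to 25.3 and 12.6 per 10,000, a ratio of 2.01 (1.85 to 2.17). That ratio ran from 1.46 to 3.19 over the alternative settings, the highest where members needed 5 division genes. Of 43 tested genes of the list 26 were at least 2-fold higher and 1 was lower. These counts are not read as support, since the rule chose barcodes by genes of the same programme. Across the 12 single members the replication list ran between 0 and 9.93 per 10,000 with a median of 5.73, whereas the 35 Cont members ran between 4.98 and 92.6 with a median of 30.3. The mitotic list ran between 12.6 and 13.3 per 10,000 in 5 of the 12 KO members, near the 12.6 of other KO epithelial barcodes, between 22.9 and 46.4 in the other 7, and between 14.9 and 192 in the Cont members. The 3 KO members with at least 5 division genes had 8.42 per 10,000 of the replication list and 40.5 of the mitotic list, against 46.2 and 78.5 in the 20 such Cont members.

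**Figure D3:**
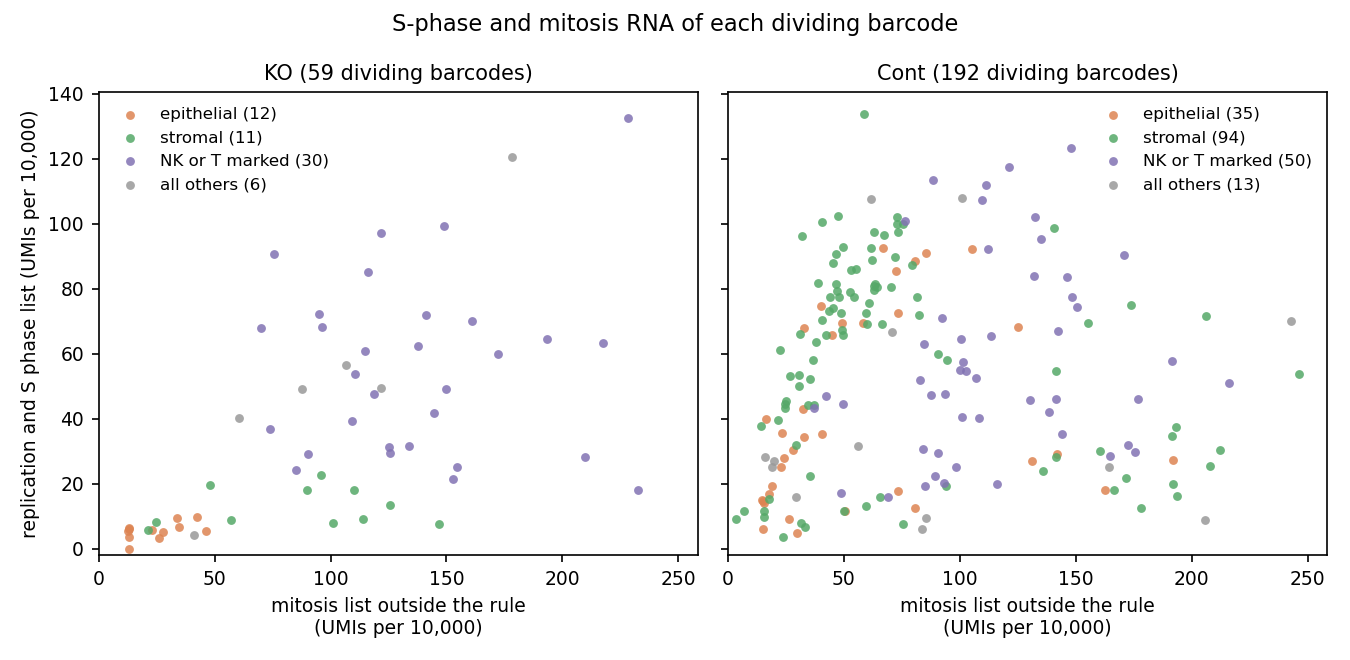
Each point is 1 dividing barcode, KO left and Cont right, with its mitotic list (x axis) and its replication and S-phase list (y axis) in UMIs per 10,000, coloured by class. No KO epithelial member passes 9.93 and no KO stromal member 22.8 on the y axis, whereas Cont epithelial members reach 92.6, Cont stromal members 134 and NK or T marked members of both libraries over 120.

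Set side by side, the replication list was 0.169 times as high in KO as in Cont epithelial members (6.17 against 36.6 per 10,000, interval 0.143 to 0.198). Of 48 tested genes 47 were at least 2-fold lower in KO, where 15.2% of all tested genes were lower and 5.32% higher. In the other epithelial barcodes the same ratio was 0.505 (5.005 against 9.91 per 10,000), with 40 of 61 genes at least 2-fold lower, beside 14.4% lower and 5.38% higher over all genes. Mcm5 had 0 UMIs in the KO members and 81 in the Cont members, at least 8.35-fold lower counting 3 UMIs for the zero. Mcm3 had 19.9 CPM in KO and 123 CPM in Cont, Pcna, the sliding clamp of DNA polymerase, 11.9 and 145 CPM, and Lig1, the ligase that joins new DNA fragments, 3.98 and 103 CPM. Tyms, which makes thymidylate, was less far apart, at 35.8 and 102 CPM. The mitotic list was 0.507 times as high in KO (25.3 against 50.01 per 10,000), with 32 of 51 genes at least 2-fold lower. Mitotic values between the epithelial members are a description, since the rule chose members by genes of the same programme. Cdc20, an activator of the ubiquitin ligase that ends mitosis, was at 35.8 CPM in KO and 39.4 CPM in Cont.

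In stroma the mitotic values are a description, here and between libraries below, since the rule chose members by genes of the same programme. KO stromal members had 81.7 per 10,000 of the mitotic list and 11.8 in other KO stromal barcodes, a ratio of 6.95 (6.30 to 7.64), and Cont members had 72.6 and 12.5, a ratio of 5.83 (5.70 to 5.97). The replication list was 13 and 5.99 per 10,000 in KO, a ratio of 2.17 (1.70 to 2.74), and 58.4 and 11.3 in Cont, a ratio of 5.15 (5.02 to 5.28). In Cont stroma 62 of 63 replication genes and 83 of 84 mitotic genes were at least 2-fold higher, beside 8.36% of all genes higher and 4.75% lower. In KO stroma 13 of 26 replication genes and 15 of 20 mitotic genes were, beside 14% higher and 6.81% lower. Ccnb2, another B-type cyclin, had 264 CPM in KO and 53.3 CPM in Cont members, 4.95-fold higher in KO (2.62 to 8.77). Hmgb2, a chromatin protein of cycling cells, had 703 and 636 CPM. The KO members are few and hold only 56902 UMIs in all. Depth also differed, with medians of 5215 UMIs in KO and 12644 in Cont stromal members, and 23557.5 and 19096 in epithelial members. Its part in the mitotic ratios was not tested.

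Between libraries, the replication list in stromal members was 0.223 times as high in KO (13 against 58.4 per 10,000, interval 0.175 to 0.280), and the mitotic list was 1.13 times as high (81.7 against 72.6, 1.02 to 1.24). Of 62 tested replication genes 33 were at least 2-fold lower in KO, 0 were at least 2-fold higher and 16 could not be called, beside 10.6% of all genes lower and 12.4% higher. Of 79 mitotic genes 11 were at least 2-fold higher and 8 at least 2-fold lower. Slbp, which binds histone messenger RNA in S phase, had 0 UMIs in KO and 258 in Cont, at least 4.01-fold lower, Lig1 had 0 and 217, at least 3.38-fold lower, and Tyms had 0 and 198, at least 3.08-fold lower. Mcm3 had 0 and 172 UMIs, at least 2.68-fold lower, but Mcm5 was found at 3 and 163 UMIs, 52.7 and 134 CPM. In the other stromal barcodes the replication list was 0.528 times as high in KO (5.99 against 11.3 per 10,000), with 39 of 63 genes at least 2-fold lower and 0 higher, beside 11% of all genes lower and 5.62% higher.

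Since S-phase barcodes can miss the rule, S-phase RNA was also counted in all barcodes at 2000 UMIs. At least 5 replication genes were then found in 0.763% of epithelial barcodes in KO and 11.2% in Cont, and in 0.705% of stromal barcodes in KO and 10.2% in Cont. Within the epithelial members the shares were 0.417% in KO, a mean of 0.05 of 12 barcodes, and 61.6% in Cont, a mean of 21.55 of 35. Within the stromal members they were 8.18% in KO, a mean of 0.9 of 11, and 78.8% in Cont, a mean of 74.1 of 94. NK or T marked barcodes showed no such gap, with 53.3% in KO and 61.7% in Cont, and 84.6% and 85.0% within the members. At matched depth the stromal classes were thus close in the share that met the 3-gene rule and far apart in the share with S-phase RNA. More replication than mitotic UMIs were held by 0 of 11 KO and 60 of 94 Cont stromal members.

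**Figure D4:**
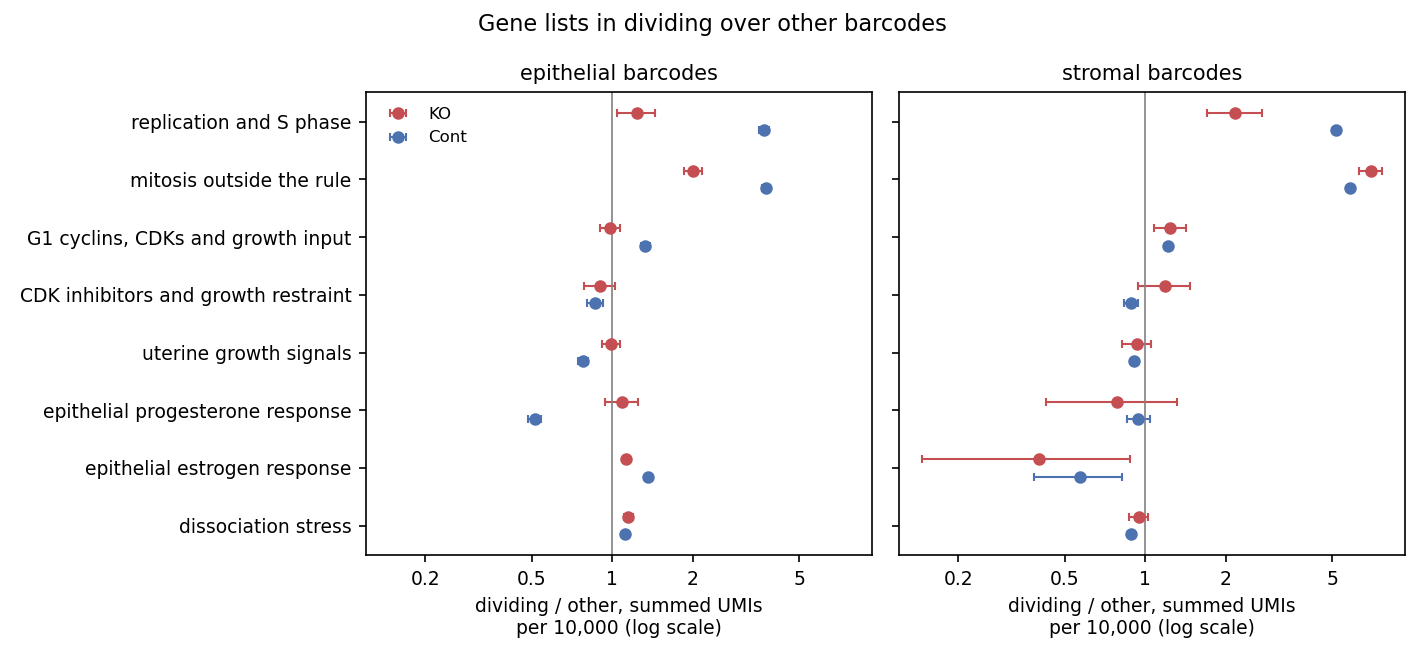
Ratio of summed UMIs per 10,000 in dividing over other barcodes (x axis, log scale) for 8 gene lists (y axis), epithelium left and stroma right, KO above Cont in each row, with 95% intervals for counting error. The replication list stands at 1.23 in KO and 3.69 in Cont epithelium and at 2.17 in KO and 5.15 in Cont stroma, whereas the mitotic list is past 5 in the stroma of both libraries.

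In Cont the dividing epithelium also differed in its hormone-response genes. Of 17 tested genes of the progesterone list 7 were at least 2-fold lower in the members and 0 at least 2-fold higher, with a median log2 ratio of -0.83, and the list summed to 15.7 per 10,000 in dividing and 30.5 in other barcodes, a ratio of 0.514 (0.485 to 0.543). Over all genes the median log2 ratio was -0.03, with 6.7% at least 2-fold higher and 7.84% at least 2-fold lower. Ihh, the hedgehog ligand that carries the progesterone signal to the stroma, had 11.1 CPM in dividing and 36.3 CPM in other Cont epithelial barcodes (ratio 0.305, 0.138 to 0.585). Lgr5, a receptor for R-spondins, had 14.8 and 78.5 CPM, and Ovgp1, an oviductal glycoprotein, 62.7 and 208 CPM. Il17rb, an interleukin receptor, had 56.6 and 128 CPM, and Fxyd4, a regulator of the sodium pump, 462 and 1060.1 CPM. Calb1, a calcium-binding protein, and Hdc, which makes histamine, stood within 2-fold, with ratios of 0.512 and 0.562. The ratio of the summed progesterone list ran from 0.364 to 0.692 over the alternative settings. Gland-marked barcodes made up 2 of 35 members and 106 of 695 other barcodes, and their part in this was not tested.

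Of the estrogen list 2 of 14 tested genes were at least 2-fold higher in the Cont members and 0 lower, beside 6.7% and 7.84% of all genes. Spp1, which encodes osteopontin, had 1398 CPM in dividing and 163 CPM in other Cont barcodes (ratio 8.58, 7.95 to 9.26) and was found in 22 of 35 members and 14.96% of others. Macrophage or myeloid markers, whose cells can also express Spp1, had 384 and 89.6 CPM, with 2 of 35 members marked, and without marked barcodes the Spp1 ratio was 8.78. Prap1, a secreted protein, had 3996 and 1053 CPM (ratio 3.79, 3.65 to 3.95). In stromal barcodes outside the dividing set, which should lack Spp1 and Prap1, they had 1.49 and 1.43 CPM in Cont, and 10.2 and 79.1 CPM in KO. The list's sum was 1.36 times as high in dividing barcodes, while Ltf, which encodes lactoferrin, had a ratio of 0.786 and Lcn2, which encodes lipocalin 2, 0.781. The receptor genes stood close, with Pgr at 62.7 and 48.3 CPM and Esr1 at 444.0 and 575 CPM. Ccnd1, the cyclin that starts the cycle on growth signals, had 216 and 142 CPM (ratio 1.52, 1.29 to 1.78).

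Errfi1 was lower in dividing than in other Cont epithelial barcodes, with 257 and 599.6 CPM (ratio 0.429, 0.372 to 0.492). In KO it was 609 CPM in dividing and 510.4 CPM in other epithelial barcodes (ratio 1.19, 1.01 to 1.40). In stroma the ratio of dividing to other barcodes was below 1 in both libraries, at 387 and 745 CPM in KO (0.519, 0.325 to 0.787) and 121 and 197 CPM in Cont (0.611, 0.515 to 0.720). Among the members alone, Errfi1 was 2.37-fold higher in KO than in Cont epithelium (1.91 to 2.93). That ratio ran from 1.90 to 4.27 over the alternative settings, the highest where members needed 4 division genes. Among stromal members Errfi1 was 3.21-fold higher in KO than in Cont (1.95 to 5.04). Its receptor partner Egfr had 75.6 CPM in dividing and 166 CPM in other KO epithelial barcodes and 101 and 120 CPM in Cont.

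In KO epithelium the hormone-response lists stood nearly level between dividing and other barcodes. The progesterone list summed to 7.998 per 10,000 in dividing and 7.35 in other KO barcodes (ratio 1.09, 0.942 to 1.25). Of its 13 tested genes 2 were at least 2-fold higher and 3 at least 2-fold lower, beside 8.86% and 6.02% of all genes. The estrogen list summed to 438 and 389 per 10,000, a ratio of 1.13, and all 15 tested genes stayed within 2-fold. That ratio was 0.913 where 2 division genes defined the members and 0.892 where 5 did, so its direction is not firm. Against Cont, the KO members had less of the progesterone list (7.998 against 15.7 per 10,000, ratio 0.511, or 0.793 where members needed 5 division genes) and more of the estrogen list (438 against 193, ratio 2.27). Of 10 tested progesterone genes 6 were at least 2-fold lower in KO and 1 was higher, and of 14 tested estrogen genes 7 were higher and 0 lower. Over all tested genes 15.2% were lower and 5.32% higher. In the other epithelial barcodes the ratios were 0.241 (7.35 against 30.5), with 14 of 17 progesterone genes lower, and 2.74 (389 against 142), with 9 of 15 estrogen genes higher. There 14.4% of all tested genes were lower and 5.38% higher. Calb1 had 1 UMI in the KO members and 135 in the Cont members, a ratio of 0.024 (6.02e-04 to 0.136), and Hdc had 2 and 184, a ratio of 0.0352 (0.00423 to 0.129). Clca1, a secreted protein of mucous epithelia, had 167 and 1 UMIs, in 11 of 12 and 1 of 35 members, and Lcn2 had 5066 and 1224 CPM. Spp1 differed less between the members, at 2069 CPM in KO and 1398 CPM in Cont, than between the other epithelial barcodes, at 1304 and 163 CPM. The comparisons of dividing with other barcodes and of KO with Cont use the same barcodes.

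Brakes and starters of the cycle were also given for the epithelial members. Ccnd1 had 87.5 CPM in KO and 216 CPM in Cont members (ratio 0.404, 0.247 to 0.632), and its partner Cdk4 had 95.5 and 204 CPM (0.468, 0.291 to 0.720). Cdkn1a, the p21 inhibitor of cyclin-dependent kinases, had 71.6 and 30.7 CPM (ratio 2.33, 1.20 to 4.44). It was found in 12 of 12 KO members and 13 of 35 Cont members, against 44.8% and 32.8% of other epithelial barcodes. Finding a gene grows with depth, and median depth was 23557.5 UMIs in KO members and 9545.5 in other KO epithelial barcodes. In Cont it was 19096 and 11572. The shares that held Cdkn1a are therefore not read as a trait of the members. Of the list of inhibitors and growth restraints 1 of 14 tested genes was at least 2-fold higher in KO and 5 were lower. Of the starters 0 of 11 were higher and 4 lower. Over all tested genes 5.32% were higher and 15.2% lower, so the number of higher inhibitors is near that share.

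**Figure D5:**
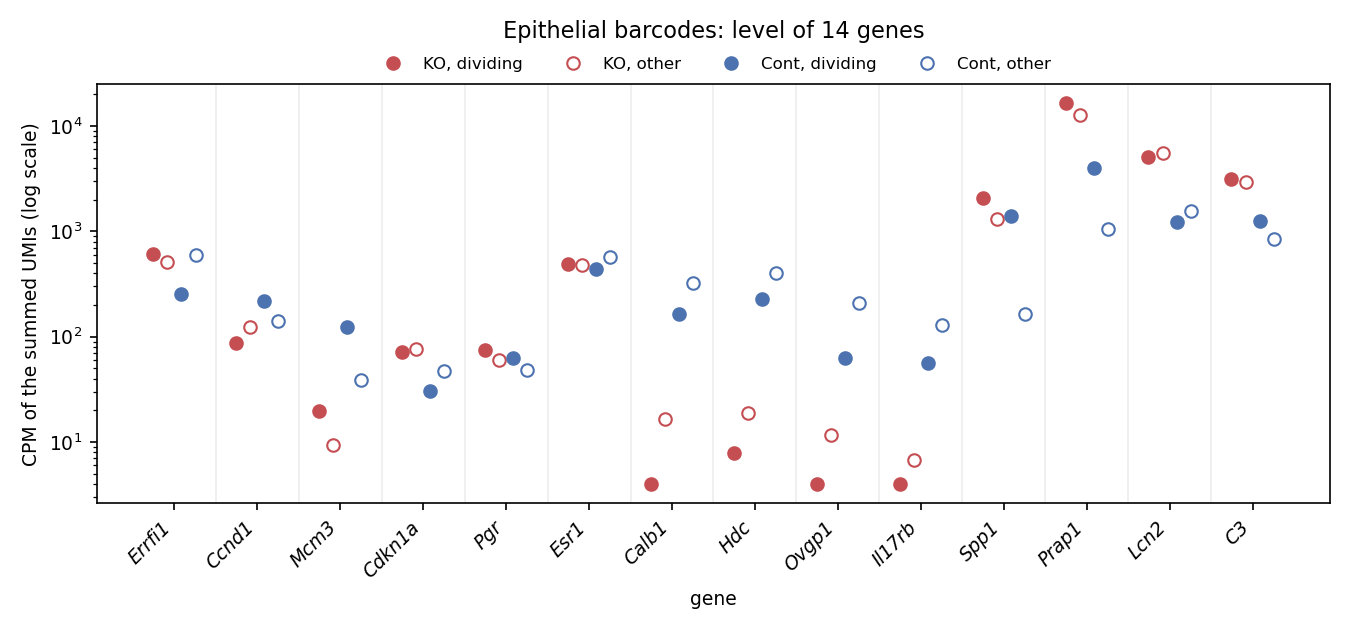
Level of 14 genes (x axis) in CPM of the summed UMIs (y axis, log scale) in epithelial barcodes, KO left of Cont, with dividing barcodes filled and other barcodes open. In Cont the filled points lie below the open ones for Errfi1, Calb1, Hdc, Ovgp1 and Il17rb and above them for Spp1 and Prap1, whereas in KO the filled and open points for Errfi1, Spp1 and Prap1 are near each other.

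Genes were also ranked by the bound of the ratio's interval nearest 1. By that rank, the genes outside the cycle lists that stood highest in Cont epithelial members were led by C1qa, H2-Aa, Cd74 and C1qb, genes of macrophages and antigen presentation. They rested on macrophage-marked barcodes, of which Cont had 2 among 35 epithelial members, and with such barcodes left out all 4 genes had 0 UMIs in the members. Ifi27l2a, an interferon-induced gene, had 137 and 5.74 CPM and kept 3 UMIs in the members without marked barcodes. Besides Spp1, given above, the 10 highest also held Pclaf, a partner of the sliding clamp, at 123 and 3.92 CPM, Ctla2a, a protease inhibitor, at 365 and 41.7 CPM, Diaph3, an actin nucleator, at 236 and 39.9 CPM, and Akr1c18, which inactivates progesterone, at 284 and 50.6 CPM. Ctla2a was found in 12 and Akr1c18 in 22 of the 35 members, and in 90 and 0 of the 94 Cont stromal members. They stayed at 9.36-fold and 5.79-fold with marked barcodes left out. Stromal markers were not used to leave barcodes out, so that step does not bear on stromal RNA in the members. Those markers had 45.5 CPM in the members and 25.6 CPM in other Cont epithelial barcodes. Their part in the Ctla2a value was not tested. The 4 lowest were Prss28 and Prss29, implantation serine proteases of the glands, at 2.46 and 174 CPM and at 207 and 1867 CPM, the keratin Krt83 at 12.3 and 128 CPM, and Spink1, a trypsin inhibitor, at 130.4 and 707 CPM. Prss29 and Spink1 had 0 UMIs in the 12 KO members. The glandular marker list as a whole had 4.51 per 10,000 in dividing and 29.5 in other Cont barcodes and 1.47 and 5.78 in KO.

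In KO epithelial members the highest by that measure were Tnfaip6, which binds hyaluronan, at 75.6 and 4.83 CPM, Lgals1, a galectin, at 139 and 25.7 CPM, and Serpinh1, a collagen chaperone, at 123 and 38.4 CPM. Stromal markers moved with these genes, with 79.6 CPM in dividing and 26.0 CPM in other KO epithelial barcodes, 0 of the 4 markers at 0, and at least 3 of the 4 in 1 of 12 and 32 of 1436 barcodes. Their part in this was not tested. Tnfaip6 was found in 3 and Lgals1 in 4 of the 12 members, against 5 and 11 of the 11 KO stromal members. Cxcl2, a chemokine that draws neutrophils, had 669 and 291 CPM and was found in 9 of 12 members. Against Cont members the highest in KO were Clca1, Cxcl2 at 669 and 9.84 CPM, Cxcl1 at 366 and 23.4 CPM, Golm1, a Golgi membrane protein, at 99.5 and 6.15 CPM, and Gdf15, a stress cytokine, at 179 and 18.4 CPM. In the other epithelial barcodes Cxcl2 was also higher in KO, at 291 CPM against 66.2 CPM in Cont. The differences between libraries in these genes are therefore not read as particular to the members. The dissociation stress list was 1.11 times as high in KO members (124 against 112 per 10,000).

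In Cont stromal members the genes outside the cycle lists that ranked highest were Pclaf at 273 and 4.75 CPM, Diaph3 at 239 and 6.47 CPM, Asf1b, a histone chaperone, at 58.2 and 1.66 CPM, Tcf19, a transcription factor, at 63.97 and 2.52 CPM, and Gmnn, the geminin brake on repeated replication, at 74.6 and 5.61 CPM. The lowest included Ogn, a small matrix proteoglycan, at 15.6 and 56.6 CPM, and Gpx3, a secreted peroxidase, at 135 and 299.6 CPM. The muscle genes Acta2 and Tagln stood at ratios of 0.347 and 0.362, but at 1.17 and 0.878 with smooth muscle and other marked barcodes left out. Hormone and patterning genes were about level, since of 23 tested progesterone and decidual genes of the stroma 1 was at least 2-fold higher and 1 at least 2-fold lower. Over all genes 8.36% were higher and 4.75% lower. Pgr had 212 and 240.1 CPM, Hand2, a progesterone-induced factor that restrains growth factor output, 89.4 and 95.4 CPM, and Igf1, a growth factor, 1083 and 1045 CPM.

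KO stromal members held 1 NK or T marked barcode among 11, and the genes Prex1, Inpp4b, Ptprc and Dock2, which were among the 10 highest by rank, had 0 UMIs without it. Of the others, Arl6ip1, a membrane-shaping protein of the endoplasmic reticulum, had 369 and 31.4 CPM, and the lowest included Hsd11b2, which inactivates glucocorticoids, at 1318 and 2952 CPM and Neat1, a nuclear non-coding RNA, at 176 and 758 CPM. Against Cont members, KO stromal members had more Nrg1, a ligand of the ERBB receptors, at 668 and 54.1 CPM (ratio 12.3, 8.05 to 18.7), and without the marked barcodes the ratio was 5.97 (348 and 58.4 CPM). The other stromal barcodes stood at 625 and 101 CPM. Ifi27l2a had 545 and 10.7 CPM in the members and 338 and 33.0 CPM in the others. Cdkn1a had 158 CPM in KO and 54.9 CPM in Cont members (ratio 2.88, 1.26 to 5.80). Map2, a microtubule protein, had 0 UMIs in KO and 370 in Cont members, at least 5.76-fold lower. The immediate response gene Egr1 had 369 and 81.2 CPM, and the dissociation stress list stood at 112 and 85.7 per 10,000, and the part of that list in these differences was not tested.

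Going by the replication list, the NK or T marked members were closer between libraries than the epithelial or stromal members. Their replication list was 0.921 times as high in KO as in Cont (53.5 against 58.1 per 10,000, 0.834 to 1.01), with 2 of 47 genes at least 2-fold higher and 6 at least 2-fold lower, beside 5.75% and 9.25% of all genes. Their mitotic list was 1.12 times as high (128 against 115, 1.05 to 1.19), with 5 of 56 genes higher and 3 lower. Mitotic values of these members are likewise a description, since the rule chose members by genes of that programme. Against the other NK or T marked barcodes both lists were higher, at 53.5 and 18.6 in KO and 58.1 and 28.8 in Cont for replication, and at 128 and 26.5 in KO and 115 and 37.3 in Cont for mitosis. In KO 8 of 10 tested replication genes were at least 2-fold higher, beside 6.94% of all genes higher and 6.26% lower, and in Cont 25 of 48 were, beside 8.38% higher and 3.25% lower. Hmgb2 had 1362 and 340.0 CPM in KO and 1316 and 370.2 CPM in Cont, and Tubb5, a tubulin, 1737 and 425 CPM in KO and 1710.4 and 455 CPM in Cont. The killer receptor gene Ncr1 had 150.1 CPM in KO and 260 CPM in Cont members, and the T cell receptor gene Trbc2 had 440 and 245 CPM. Zeb1, a transcription factor, was lower in the members of both libraries, at 150.1 and 525 CPM in KO and 149 and 492 CPM in Cont.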

How the data were processed

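Counts of UMIs per gene and barcode were deposited by the authors as 1 matrix per library with 32285 features. Per the file headers, Cell Ranger 7.0.1 made them, with mm39 and Seurat named in the submitters' processing notes. The deposited libraries held 3118 KO and 4627 Cont barcodes with 23317904 and 44871170 UMIs. Filters were 500 genes and 15% mitochondrial UMIs, and the compartment limits were 10 per 10,000 UMIs. UMIs were summed over barcodes of a class, expressed as CPM, and compared as ratios with exact conditional intervals. Shares had exact Clopper-Pearson intervals and differences of shares Newcombe intervals, all at 95%. Genes needed 20 UMIs in both sets together, and a gene or list was described as higher or lower from 2-fold. Where 1 set had 0 UMIs, a floor of 3 UMIs per set was used, and genes under that floor could not be called. No test between libraries was run, since each group is 1 library.

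Genes named were those of the lists for replication, mitosis, G1, inhibitors, growth signals, hormone response and markers, plus the 10 highest and 10 lowest per comparison, ranked by the interval bound nearest 1, with at least 50 CPM in the higher set and a 2-fold ratio. The members and lists were chosen with earlier results of these data known. Barcodes marked by another cell type (3 markers) were left out as an alternative added after seeing the data. Doublets were not removed in the values given. Scrublet in scanpy 1.11.5 marked 51 KO and 11 Cont barcodes on its own threshold, and 70 and 159 were removed in an alternative at 0.8% per 1000 barcodes. Work was done in python 3.11.15 with numpy 2.4.6, scipy 1.17.1, pandas 2.3.3 and matplotlib 3.10.9. The ratios and intervals were run on simulated data with the same counting error that the intervals assume. Spread between barcodes or animals was not simulated, so that run does not check it.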

Additional observations from a re-analysis of the deposited data

Results flagged for a closer look

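In 9 cases the ratio of dividing to other barcodes stood on opposite sides of 1, with intervals that did not include 1, in different classes or libraries. No difference between ratios was tested. Errfi1 stood at 1.19 in KO epithelium and 0.429 in Cont epithelium. Inhbb, a subunit of activin and inhibin, stood at 2.93 in KO and 0.147 in Cont epithelium. Padi1, an enzyme that makes citrulline in proteins, stood at 1.16 in KO and 0.816 in Cont epithelium, and Wfdc2, a secreted protease inhibitor, at 1.08 and 0.922. Within Cont, Cdkn1a stood at 0.657 in epithelium and 1.89 in stroma, and Nrg1 at 1.41 and 0.538. E2f5, a repressor of the E2F family, stood at 1.53 in Cont epithelium and 0.586 in Cont stroma, and Fkbp4, a chaperone of steroid receptors, at 0.804 and 1.16. The estrogen list, which is made of epithelial response genes, stood at 1.36 in Cont epithelium and 0.57 in Cont stroma. Stromal barcodes should lack genes such as Spp1 and Prap1, so the stromal value is not read as a response of the stroma to estrogen.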

How the results depend on the processing

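No paired analysis was possible because each group is 1 library. In all, 49 values of the main comparisons moved beyond their counting interval or past 1.5 times, and 293 did not. With 2 division genes required, the KO minus Cont differences in share were -4.22 points over all barcodes, -7.38 in epithelium and -3.56 in stroma, KO members were 35.2% epithelial and 44.0% of neither class, and Cont members 22.7% of neither. The KO epithelial genes at least 2-fold higher then numbered 524, and the dividing to other ratio of the replication list was 3.04 in Cont epithelium and 4.34 in Cont stroma, with a KO to Cont ratio of 0.214 in epithelium. With 4 required, that ratio was 1.45 in KO epithelium, 4.36 in Cont epithelium and 4.97 in Cont stroma. With 5, chosen after seeing the data, it was 1.68, 4.37 and 4.85, Cont members were 39.8% of neither class, and 522 genes were lower in KO than Cont stroma. The replication ratio in Cont epithelium was 3.53 at a class limit of 20 per 10,000. In Cont stroma it was 5.28 without doublets, 4.99 with barcodes of both classes counted in both and 5.32 without marked barcodes. As a mean over barcodes it was 4.60 in Cont epithelium and 5.41 in Cont stroma, and 0.136 for KO to Cont epithelium. Gene counts followed the minimum depth: at 100 UMIs, 334 were higher in KO epithelium, 228 higher and 413 lower in Cont epithelium, 66 higher and 149 lower in KO than Cont epithelium, 463 higher in KO stroma, 527 in Cont stroma, and 154 higher and 318 lower in KO than Cont stroma. At 5 UMIs, they were 1645 higher in Cont epithelium, 920 higher and 1636 lower in KO than Cont epithelium, 2095 higher in Cont stroma and 1765 higher in KO than Cont stroma. Thinned to 2000 UMIs the share differences were -0.607 points over all, -1.27 in epithelium and -0.181 in stroma, KO members were 2.41% epithelial and 75.8% of neither class, and Cont members 12.5% epithelial, 36.3% stromal and 49.8% of neither. At 4000 UMIs they were -1.81 in epithelium and -0.237 in stroma. The NK or T marked difference reversed to 39.6 points at 4000 UMIs, where 6 KO barcodes were left, and the KO epithelial estrogen ratio reversed to 0.913 and 0.892 with 2 and 5 division genes required. The causes were not tested.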
